A study of Caenorhabditis elegans with 9 samples.

Results

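Whole C. elegans hermaphrodites at Day 15 of adulthood were compared with hermaphrodites at Day 6 of adulthood, 9 days earlier, to see which genes and gene families had become more or less abundant in old animals. The arrays were chosen by their sample titles, and these 2 ages supply 6 of the 9 GeneChip arrays of the series, 3 at Day 15 and 3 at Day 6. The 3 remaining arrays are of L4 larvae, the last larval stage. They enter the level filter and the estimate of spread, and their values are given beside some genes. The 3 arrays of an age carried RNA from 3 separately propagated populations of the wild type strain N2 (Bristol). All were synchronised by bleaching and fed E. coli OP50 at 20 °C. Whether the same populations were sampled at each age is not given in the sources used here. Both adult ages were kept on 0.05 mg/ml FUdR, a nucleoside analogue that blocks DNA synthesis and keeps eggs from hatching, whereas the L4 larvae were collected before they met the drug. Both the Day 15 and the Day 6 values are therefore those of drug-treated animals, and no adult without FUdR stands beside them. Whether dead animals were removed from the Day 15 populations is not given in the sources used here.

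The hermaphrodite gonad makes sperm first, during the L4 stage, and then switches for the rest of life to oocytes. The sperm are stored in the spermatheca and are used up in the first days of adult life. Spermatocytes, oocytes, gut, muscle, neurons, epidermis and the scavenging coelomocytes all contribute RNA to a whole-worm extract, so a lower value may reflect fewer cells of a type or less RNA per cell, and these cannot be told apart. The array measures abundance on a log2 scale, on which a difference of 1 is 2-fold. Probe sets differ in brightness, so changes are those of a gene against itself between ages, and the ranks by level below describe probe sets.

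Of 17118 genes to which at least 1 probe set belonged alone, 11758 had a mean of at least 4 at 1 or more of the 3 ages and were tested. A gene was said to have risen or fallen when its adjusted p was under 0.05 (limma, Benjamini-Hochberg over all genes tested) and its mean differed by at least 2-fold. By this rule 1929 genes rose, which is 16.4% of those tested, and 1993 fell, which is 17.0%. At least 10-fold rises numbered 537, or 4.57% of the genes tested, against 337 falls of that size, or 2.87%. The 3 arrays of one age lay wholly beyond the 3 of the other for 1925 of the genes that rose and for 1991 of those that fell. A gene with a mean under 4 at its lower age has only a lower bound for its fold, computed with values under 4 set to 4 and written below as "at least". The 3 Day 15 arrays correlated with each other at 0.987 to 0.992 and the 3 Day 6 arrays at 0.991 to 0.992, against 0.821 to 0.859 between the ages. The L4 arrays were less alike, at 0.903 to 0.972, and L4 replicate 2 stood apart with a median of 10.95 over 8 oocyte genes, against 7.74 and 9.16 in replicates 1 and 3. That spread enters the standard errors below, since all 9 arrays were fitted together. With the adult arrays fitted alone 2034 genes rose and 2178 fell.

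**Figure D1:**
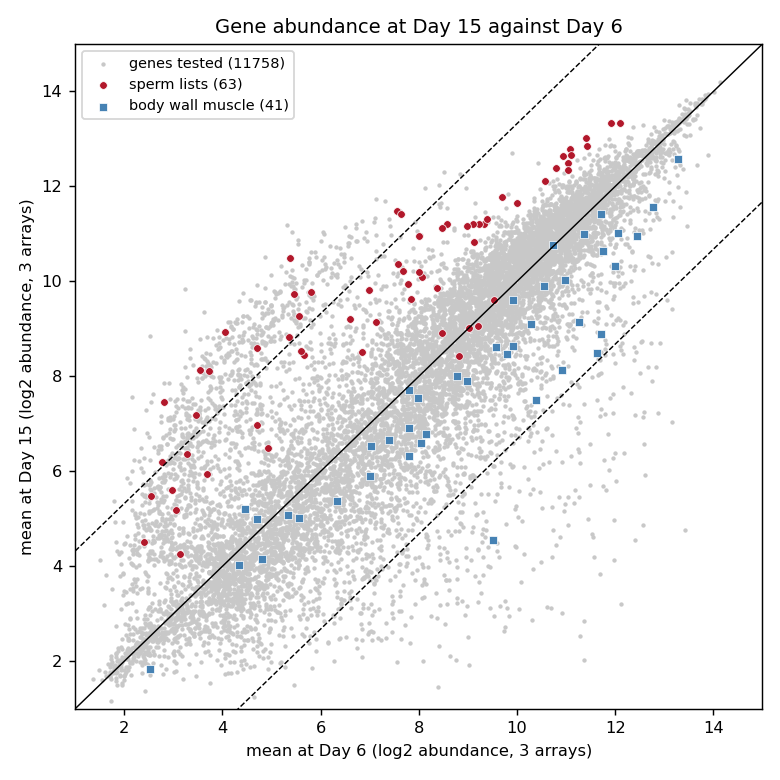
Mean log2 abundance at Day 15 (y axis) against Day 6 (x axis) for the 11758 genes tested, 1 grey point per gene. Most genes of the major and small sperm protein list and of the spermatogenesis list lie above the diagonal and most body wall muscle genes below it; the dashed lines mark a 10-fold difference.

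The genes with the largest rises were mostly ones that carry no functional name. Of the 537 genes that rose at least 10-fold, 394 had only a sequence name (73.4%, against 38.6% of all genes tested). Their median level was 8.70 at Day 15 and 4.40 at Day 6, and 8.68 in L4 larvae. By their own L4 level, 319 of the 537 had an L4 mean within 1 of the Day 15 mean (59.4%, against 39.7% of all genes tested). Of the rest, 93 stood more than 1 above the Day 15 mean and 125 more than 1 below it. These L4 levels are given as a description, since they share the Day 15 arrays with the comparison.

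D1081.5 had log2 values of 9.03, 9.33 and 9.71 at Day 15, against 3.79, 3.24 and 3.84 at Day 6. The ages did not overlap, and its L4 values were 9.03, 8.78 and 9.51. The rise was at least 41.0-fold (log2 change 5.73 ± 0.27 SE, adjusted p = 1.1e-06). C14C10.1 stood at 10.30, 10.57 and 10.70 at Day 15 and at 5.34, 4.17 and 5.08 at Day 6. R148.7 stood at 10.53, 11.31 and 10.76 at Day 15 and at 6.23, 4.59 and 5.78 at Day 6. Y41C4A.32 stood at 11.35, 10.85 and 11.34 at Day 15 and at 5.55, 4.79 and 5.61 at Day 6. Y71G12B.27, R04B5.11 and Y116A8C.23 behaved alike, with rises of 49.2-fold, 40.3-fold and 38.2-fold on the fitted scale and L4 means of 10.38, 9.48 and 8.46. In all of these Day 6 replicate 2 was the lowest of the 6 adult arrays, though the Day 6 values of D1081.5 were all under 4.

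A smaller set was high at Day 15 and low at both earlier stages. sri-39, which encodes a predicted G protein-coupled chemoreceptor, had 9.70, 9.42 and 10.42 at Day 15, against 3.21, 3.27 and 3.21 at Day 6. Its rise was at least 57.5-fold, beside 58.2-fold for Y41C4A.32, and which of the pair rose further cannot be told. Its L4 values were 2.42, 2.18 and 2.26. cpr-2, a cathepsin B-like protease, stood at 9.25, 8.57 and 8.71 at Day 15, against 2.64, 2.57 and 2.36 at Day 6, a rise of at least 28.7-fold (adjusted p = 3.3e-07). It was the only one of the 8 tested cpr proteases that rose, while 6 fell, among them cpr-5 (log2 change -5.59 ± 0.25) and cpr-9 (-3.79 ± 0.17). C27H5.6 had values of 7.33, 7.12 and 8.25 at Day 15, against 2.06, 2.14 and 2.30 at Day 6, and its L4 values did not pass 2.23. fmo-2, a flavin-containing monooxygenase chosen after its values were seen, had 8.25, 6.57 and 8.76 at Day 15 and 2.53, 2.85 and 3.37 at Day 6. The 3 Day 15 populations differed more from each other in fmo-2 (SD 1.15) than in cpr-2 (SD 0.36).

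**Figure D2:**
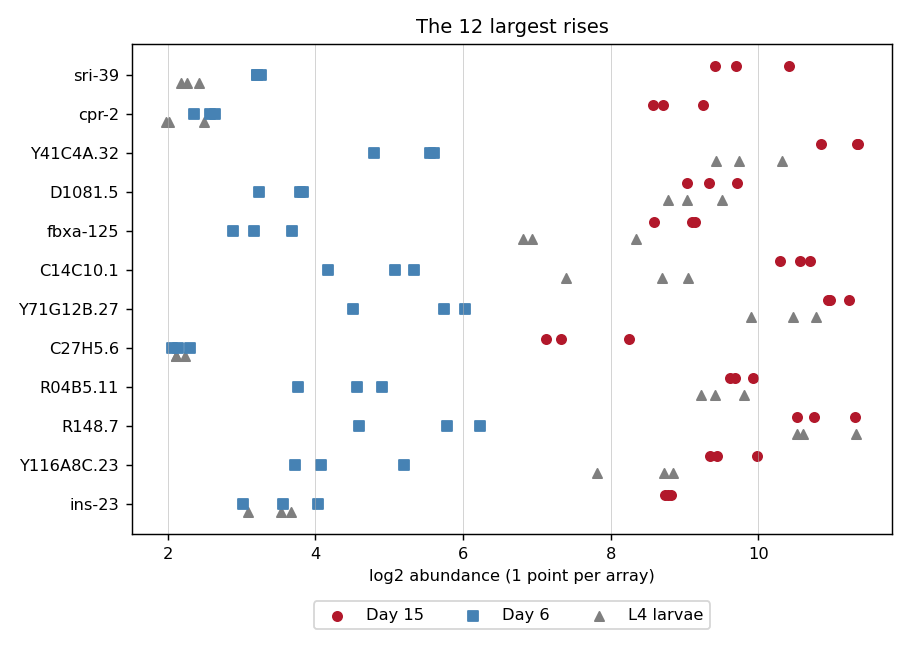
Log2 abundance (x axis) on each array of the 12 genes with the largest rises among those with a mean of at least 7 at Day 15 (rows). Day 15 points lie to the right of all Day 6 points in every row, and L4 points lie nearer the Day 15 points in 8 rows and nearer the Day 6 points for sri-39, cpr-2, C27H5.6 and ins-23.

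Most of the genes tested that are used to make sperm rose. Nematode sperm crawl by means of the major sperm protein (MSP), which takes the place of actin and is encoded by a large gene family. Of 37 tested genes for MSPs and other small sperm proteins, 35 rose and 0 fell (94.6%, against 16.4% of all genes), with a median change of 2.09. Of 26 tested spermatogenesis genes, 22 rose and 0 fell, with a median change of 2.21 (1.97 with values under 4 set to 4). By gene name, 23 of 23 tested msp genes, 24 of 26 spe genes and 6 of 8 ssp genes rose, the 3 largest shares of 168 gene-name classes. The lists and classes share members, and 28 of the 37 probe sets of the first list carry the array maker's mark for sequences shared by several transcripts. With marked probe sets left out, 8 members of the first list rose, and of the msp class 1, so the msp genes cannot be counted as separate measurements.

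The msp probe sets were already bright at Day 6 and were among the brightest risers at Day 15. msp-78 had values of 13.33, 13.25 and 13.43 at Day 15, against 12.59, 11.61 and 12.10 at Day 6 (log2 change 1.24 ± 0.24, adjusted p = 0.0026). msp-19 stood at 12.96, 13.02 and 13.08 at Day 15 and at 11.81, 10.97 and 11.42 at Day 6. The 3 Day 15 values of each spanned under 0.2 units, and Day 6 replicate 1 was the highest Day 6 array for both. msp-50 rose by 2.78 ± 0.27 and msp-32, whose probe set is not marked as shared, by 2.54 ± 0.33. msp-32 had 9.89, 10.18 and 10.59 at Day 15, against 7.99, 7.10 and 7.95 at Day 6. The 4 other msp genes among the 10 risers with the highest Day 15 means, msp-55, msp-59, msp-53 and msp-76, rose by 1.42 to 1.70.

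Of the 8 tested ssp genes, named for sperm-specific proteins, 6 rose, and the sss genes are of the same list. sss-2 had 10.31, 10.58 and 10.58 at Day 15, against 6.50, 4.42 and 5.21 at Day 6, a rise of 34.6-fold (log2 change 5.11 ± 0.46, adjusted p = 2.9e-05). ssp-16 had 8.09, 8.18 and 8.11 at Day 15, against 3.92, 3.21 and 3.50 at Day 6. In both genes the 3 Day 15 arrays were nearly equal and Day 6 replicate 2 was the lowest, though the Day 6 values of ssp-16 were all under 4. sss-1, ssp-33, ssp-31 and ssp-34 rose by 4.88, 4.29, 3.90 and 3.70. gipc-1, which is outside the sperm lists and was named for its level, had 12.48, 12.74 and 12.88 at Day 15, against 10.46, 9.33 and 9.90 at Day 6.

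The spermatogenesis genes covered several steps. gsp-3 and gsp-4 encode a pair of near-identical protein phosphatases of sperm, and their probe sets cannot be taken as separate. gsp-3 stood at 11.40, 11.38 and 11.67 at Day 15 and at 8.32, 7.15 and 7.18 at Day 6 (log2 change 3.93 ± 0.42, adjusted p = 7.8e-05). spe-27, needed for spermatids to become motile, had 7.14, 7.43 and 7.81 at Day 15, against 3.22, 2.26 and 2.97 at Day 6, at least 11.0-fold apart. fer-1, the founding ferlin of membrane fusion in sperm, had 8.63, 8.24 and 8.51 at Day 15, against 5.80, 5.35 and 5.86 at Day 6. Its L4 values of 3.39, 5.35 and 5.01 lay at or under those of Day 6. spe-55 and spe-18 rose by 4.83 and 4.22, and spe-46 by at least 17.3-fold. The 4 other members of the list did not pass the test.

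All 6 of the tested sperm markers rose, though with marked probe sets left out 1 did. Their summed level on the log2 scale ran from 14.2 to 14.4 at Day 15, against 11.7 to 12.6 at Day 6. The L4 sums were 14.3 to 14.8. Of the 8 sperm markers on the array, spe-9 and spe-38 were under the level filter at every age and were not tested. The oocyte markers ran the other way, with summed levels of 14.2 to 14.5 at Day 15 and 14.8 to 15.1 at Day 6, and 0 of 8 were called in the limma fit of all 9 arrays, nor was any at an unadjusted p under 0.05. With the adult arrays fitted alone, which leaves out the spread of the L4 arrays in these genes, 2 of the 8 fell.

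Since males also make sperm, 9 genes of male sensory neurons and seminal fluid were looked at after these values were seen. lov-1, klp-6 and cwp-1 to cwp-5, which are active in male sensory neurons, though not all of them only there, had means under 4 at both adult ages. Under the level filter and untested, lov-1, klp-6 and cwp-2 were still higher on every Day 15 array than on any Day 6 array. klp-6 had 3.98, 4.39 and 3.58 at Day 15, against 3.24, 3.19 and 3.04 at Day 6. The other cwp genes did not stand apart in this way. pkd-2, the polycystin partner of lov-1, rose to 6.49, 5.76 and 5.42 at Day 15, against 3.08, 2.88 and 2.85 at Day 6. try-5, a protease of male seminal fluid, had 8.54, 9.11 and 9.07 at Day 15 and 8.18, 8.28 and 8.95 at Day 6, and these ranges overlapped (adjusted p = 0.33). The share of males in the populations was not tested.

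**Figure D3:**
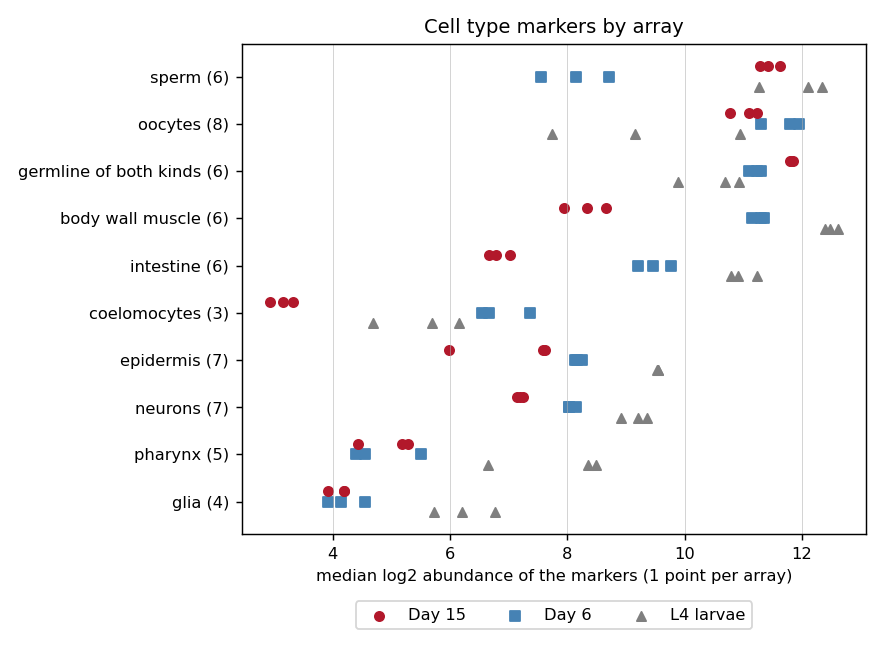
Median log2 abundance over the tested markers of each cell type (x axis) on each array, with the cell types and their numbers of tested markers in rows. Day 15 medians lie above Day 6 medians for sperm and below them for oocytes, body wall muscle, intestine and coelomocytes.

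Several housekeeping families held a member that rose beside a close relative that did not. The proteasome lid subunit rpn-6.2 had 9.85, 9.94 and 9.76 at Day 15, against 7.50, 7.17 and 7.02 at Day 6. It was the only one of 33 proteasome subunits called, and rpn-6.1 changed by -0.10 ± 0.18 (adjusted p = 0.68). Of the pair of cytochrome c genes, cyc-2.2 had 10.88, 10.92 and 10.78 at Day 15, against 8.02, 5.74 and 6.41 at Day 6. The change of cyc-2.1 was 0.33 ± 0.17 (adjusted p = 0.16). pck-3, a phosphoenolpyruvate carboxykinase gene, stood at 8.77, 9.29 and 9.35 at Day 15 and at 4.73, 3.80 and 4.21 at Day 6. Its relative pck-1 fell by 2.78 ± 0.24, with 9.05, 9.05 and 8.55 at Day 15 and 11.59, 11.31 and 12.10 at Day 6. The phosphofructokinase pfk-1.2 rose by at least 10.1-fold, whereas pfk-1.1 had a change of -0.85 ± 0.21, short of 2-fold. The difference between relatives was not tested in any of these families.

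Argonaute proteins, which carry small RNAs, also changed in both directions. Of 18 tested, 4 rose and 2 fell (22.2% and 11.1%, against 16.4% and 17.0% of all genes), with a median change of 0.06. alg-3 had 8.18, 9.17 and 8.78 at Day 15, against 4.76, 4.24 and 4.72 at Day 6 (log2 change 4.14 ± 0.41, adjusted p = 5.2e-05). alg-3 and alg-4 act together in the male germline in the small RNA pathway needed for fertile sperm. alg-4 rose by 4.45 ± 0.41, wago-10 by 3.19 ± 0.47 and csr-1, needed for germline chromosome organisation and gene licensing, by 1.02 ± 0.22. The members that fell were nrde-3, a nuclear Argonaute of somatic cells, by 1.58 ± 0.34, and alg-1, which carries microRNAs, by at least 1.47-fold. The call of alg-1 rests on its brightest probe set and was lost with values under 4 set to 4, and the mean over its probe sets gave a change of 0.17.

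Genes shared by male and female germ cells held some risers. Of 32 meiotic chromosome genes, 9 rose and 0 fell (28.1%, against 16.4% of all genes), with a median change of 0.90. With the adult arrays fitted alone 13 rose, and 1 did when the change had to exceed 2-fold beyond its error. syp-1, a central element of the synaptonemal complex that holds paired chromosomes together, had 12.69, 12.51 and 12.45 at Day 15, against 11.30, 11.27 and 11.10 at Day 6 (log2 change 1.33 ± 0.24, adjusted p = 0.002). him-14, a MutS-family protein needed for crossovers, rose by 1.78 ± 0.26. zim-3, a zinc finger protein of the chromosome pairing centres, rose by 1.47 ± 0.34, and the checkpoint kinase chk-2 by 1.30 ± 0.28. syp-1 was the only one of 6 markers of germline of both kinds to be called, and with the adult arrays fitted alone 2 were.

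Of 33 germ granule and germline RNA regulator genes, 4 rose and 1 fell (12.1% and 3.03%, against 16.4% and 17.0% of all genes). With marked probe sets left out 2 rose, and 1 did when the change had to exceed 2-fold beyond its error. fog-3, which directs germ cells to the sperm fate, had 8.96, 9.22 and 8.96 at Day 15, against 6.55, 6.91 and 6.10 at Day 6. Its L4 values of 3.50, 3.84 and 3.59 were below both adult ages, unlike those of most sperm genes named above. The rise was 5.76-fold (log2 change 2.53 ± 0.23, adjusted p = 2.9e-05). mut-7, an exonuclease-family protein of small RNA amplification, rose by 1.49 ± 0.27, and by 0.79 on the probe set not marked as shared, short of 2-fold. glh-3, a germline RNA helicase, rose by 1.28 ± 0.22. meg-4, a germ granule protein of the embryo, fell by 1.16 ± 0.34.

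Oocyte and eggshell genes lay slightly lower at Day 15, with a median change of -0.55 over 30 genes. Of these 0 rose and 1 fell, cav-1, a caveolin of developing oocytes. cav-1 had 9.54, 9.90 and 9.72 at Day 15, against 11.14, 11.01 and 10.59 at Day 6 (adjusted p = 0.0025). With the adult arrays fitted alone 3 fell. Of 65 DNA replication and cell division genes, 4 rose and 0 fell (6.15% rose, against 16.4% of all genes). Their median change was 0.21. The 4 were hcp-6, a condensin II subunit, knl-3, a kinetochore protein, psf-2, a subunit of the GINS replication complex, and rfc-2, a clamp loader subunit, with changes between 1.11 and 1.51. Only the call of hcp-6 held without each array in turn. Of 7 early embryo markers on the array, 1 reached the level filter, and it was not called.

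Of 31 tested histone genes, 8 rose and 1 fell (25.8% and 3.23%, against 16.4% and 17.0% of all genes). Their median change was 0.66. his-64 had 11.52, 11.84 and 11.52 at Day 15, against 8.96, 8.34 and 7.96 at Day 6, a rise of 9.23-fold. his-31 and his-62 rose by 3.18 ± 0.35 and 2.70 ± 0.31. Histone genes are nearly identical in sequence and 19 of the 31 probe sets are marked as shared, so these values cannot be tied to single genes. With marked probe sets left out 4 rose. his-70, an H3.3-type gene with a probe set of its own, had 5.51, 6.70 and 6.04 at Day 15, against 3.92, 3.30 and 3.67 at Day 6.

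F-box proteins, which bring substrates to SCF ubiquitin ligases and form one of the most expanded families of nematodes, moved in both directions. Of 140 tested, 49 rose and 24 fell, which is 35.0% and 17.1% against 16.4% and 17.0% of all genes. In the fbxa class 42 of 103 rose and 14 fell. fbxa-183 had 6.47, 6.36 and 6.62 at Day 15, against 2.67, 2.09 and 2.27 at Day 6, at least 5.59-fold apart. fbxa-125, one of the 12 largest rises, had 8.59, 9.15 and 9.10 at Day 15, against 3.68, 3.17 and 2.89 at Day 6, at least 30.8-fold apart. fbxb-36 had 7.24, 8.26 and 7.84 at Day 15, against 4.29, 3.86 and 3.73 at Day 6. fbxa-51 ran against these, with 3.50, 3.28 and 3.15 at Day 15 and 7.08, 6.44 and 6.69 at Day 6, at least 6.67-fold apart. Single F-box genes thus changed in opposite directions, while the family median was 0.11.

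The MATH and BTB domain proteins, adaptors of cullin 3 ubiquitin ligases, also spread in both directions. Of 62 tested, 18 rose and 12 fell (29.0% and 19.4%, against 16.4% and 17.0% of all genes). In the bath class 14 of 30 rose and 2 fell. bath-36 had 10.91, 11.09 and 11.17 at Day 15, against 8.35, 7.68 and 7.88 at Day 6 (log2 change 3.09 ± 0.22, adjusted p = 8.8e-06). btb-1 had 9.78, 9.37 and 8.72 at Day 15 and 5.31, 5.54 and 5.51 at Day 6. Both stood lower still in L4 larvae, at 4.76 to 5.26 for bath-36 and 3.51 to 3.79 for btb-1. bath-45, bath-13 and bath-7 rose by 2.21 to 2.32, and their L4 means were also the lowest of the 3 ages. In the opposite direction math-14 had 2.79, 3.27 and 3.12 at Day 15, against 7.30, 7.03 and 8.60 at Day 6.

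The pals genes form a nematode family whose founding members respond to intracellular pathogens. Of 14 tested, 7 rose and 2 fell. pals-5, commonly used as a reporter of that response, had 5.37, 6.79 and 5.85 at Day 15, against 2.20, 2.08 and 2.20 at Day 6, at least 4.01-fold apart. pals-38 had 6.24, 7.04 and 6.55 at Day 15, against 4.14, 3.79 and 3.43 at Day 6. Replicate 2 was the highest Day 15 array for both genes. Both passed the level filter only through Day 15, the age at which they were high. pals-27 and pals-33 rose by 2.62 ± 0.28 and 2.02 ± 0.34, and pals-6 and pals-23 fell by 2.29 ± 0.25 and 1.94 ± 0.23. With values under 4 set to 4, 4 pals genes rose.

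Of 16 tested nep genes, which encode neprilysin-like metallopeptidases, 8 rose and 2 fell. nep-8 had 6.09, 6.52 and 6.94 at Day 15, against 2.66, 2.60 and 2.53 at Day 6, at least 5.72-fold apart. nep-17 had 5.57, 6.44 and 5.56 at Day 15, against 8.72, 9.05 and 9.39 at Day 6. The family thus held changes in both directions. Of 10 snf genes, which encode sodium-coupled transporters, 5 rose and 1 fell. snf-10, a transporter of sperm that takes part in their activation, had 5.60, 6.49 and 6.51 at Day 15, against 2.82, 2.53 and 2.95 at Day 6. snf-2 and snf-5 rose by 3.98 ± 0.49 and 3.42 ± 0.40. snf-3, a betaine transporter, was the member that fell, by 1.43 ± 0.41.

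**Figure D4:**
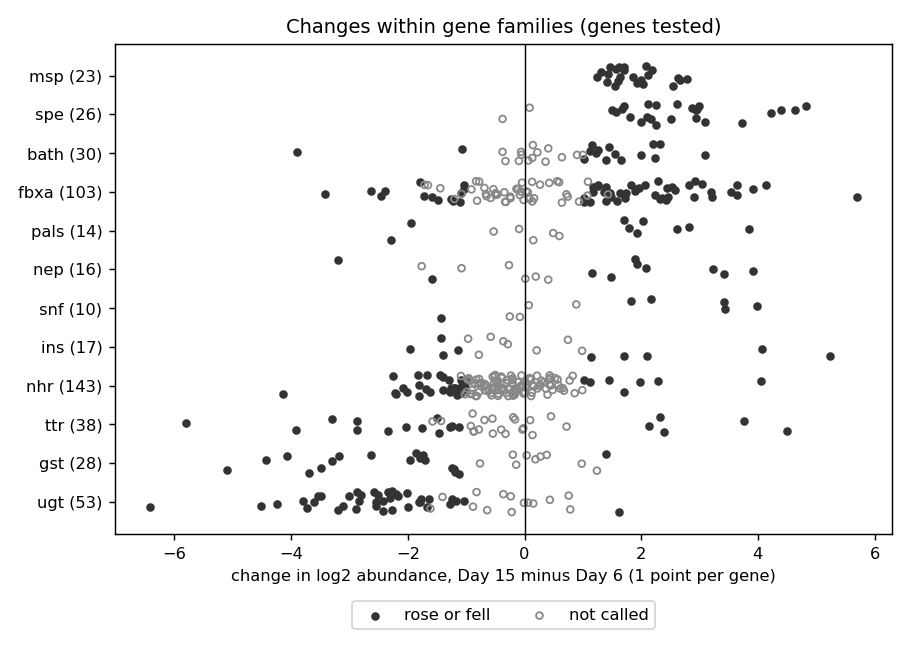
Change in log2 abundance (Day 15 minus Day 6, x axis) of each tested gene in 12 families (rows), with filled points for genes that rose or fell and open points for the rest. All msp points and all but 1 of the spe points lie to the right of 0, most ugt and gst points lie to the left, and fbxa, nep and ttr points spread to both sides.

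Insulin-like peptide genes changed in both directions. Of 17 tested ins genes, 5 rose and 4 fell (29.4% and 23.5%, against 16.4% and 17.0% of all genes). ins-23 had 8.78, 8.74 and 8.82 at Day 15, against 3.56, 3.02 and 4.04 at Day 6, at least 27.2-fold apart (log2 change 5.24 ± 0.27, adjusted p = 1.6e-06). ins-37 had 10.12, 10.40 and 10.31 at Day 15, against 6.62, 5.99 and 6.00 at Day 6. The 3 Day 15 arrays agreed within 0.3 units in both genes. ins-4, an agonist of the insulin receptor DAF-2, rose by 2.10 ± 0.23 and ins-22 by 1.70 ± 0.30. ins-5 fell by 1.44 ± 0.39 and ins-33 by at least 2.21-fold, and the call of ins-33 was lost with values under 4 set to 4.

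Over all 89 tested neuropeptide genes, insulins included, 7 rose and 23 fell (7.87% and 25.8%, against 16.4% and 17.0% of all genes). Their median change was -0.40 (-0.29 with values under 4 set to 4). flp-17, a FMRFamide-like peptide gene of the BAG carbon dioxide-sensing neurons, had 3.17, 3.74 and 3.41 at Day 15, against 6.53, 6.53 and 6.67 at Day 6. nlp-16 had 7.21, 6.68 and 6.20 at Day 15, against 9.71, 9.04 and 8.74 at Day 6. nlp-26 and nlp-25 fell by 3.82 ± 0.75 and 2.44 ± 0.38. When the change had to exceed 2-fold beyond its error, 5 of these peptides fell.

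Genes that make and move neurotransmitters were lower at Day 15, with 7 of 13 falling, 0 rising and a median change of -1.04 (53.8% fell, against 17.0% of all genes). With values under 4 set to 4 the median was -0.93. unc-25, the glutamate decarboxylase that makes GABA, had 4.82, 4.41 and 4.44 at Day 15, against 7.17, 6.85 and 7.62 at Day 6 (log2 change -2.66 ± 0.23, adjusted p = 2.4e-05). bas-1, the decarboxylase that makes serotonin and dopamine, had 5.90, 6.54 and 6.07 at Day 15, against 8.69, 8.74 and 8.66 at Day 6. cat-4, which makes the biopterin cofactor of serotonin and dopamine synthesis, fell by 2.29 ± 0.24. The glutamate transporter glt-1 fell by 2.05 ± 0.20. Of 11 tested mec genes, named for mutants that fail to respond to touch, 6 fell and 0 rose. On unmarked probe sets 2 fell, and 3 did when the change had to exceed 2-fold beyond its error. mec-17, a tubulin acetyltransferase, had 5.71, 5.72 and 5.98 at Day 15, against 7.80, 8.14 and 8.16 at Day 6. mec-12, an alpha-tubulin, fell by 1.57 ± 0.27, and mec-5, a collagen laid down around the touch cells, by 2.84 ± 0.30. mec-3, a homeodomain factor of these cells, fell by at least 1.57-fold, and its call was lost with values under 4 set to 4.

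Of 31 synaptic genes 6 fell (19.4%, against 17.0% of all genes) and 1 rose, with a median change of -0.49. When the change had to exceed 2-fold beyond its error 1 fell. ric-4, the SNAP-25 of the vesicle fusion machinery, had 7.85, 7.14 and 7.70 at Day 15, against 9.58, 9.21 and 8.91 at Day 6. unc-26, the synaptojanin of vesicle recycling, fell by 1.24 ± 0.20 on its brightest probe set, and the mean over its probe sets changed by -0.70. ric-8, a G protein regulator also used in embryos, rose by 1.04 ± 0.18 on its brightest probe set, and the mean over its probe sets changed by 0.26 (adjusted p = 0.34). Of 7 tested neuron markers 3 fell and 0 rose.

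Among channels, 11 of 39 potassium channel genes fell (28.2%) and 2 rose (5.13%). Of 32 ligand-gated channel subunits 6 fell (18.8%) and 2 rose (6.25%). Of 18 innexins, the gap junction proteins of invertebrates, 6 fell (33.3%) and 1 rose (5.56%). Over all genes 17.0% fell and 16.4% rose. twk-18, a background potassium channel of body wall muscle, had 3.47, 3.01 and 2.71 at Day 15, against 7.07, 6.84 and 7.35 at Day 6, at least 8.50-fold apart. inx-17 had 5.75, 5.01 and 5.24 at Day 15, against 7.89, 7.99 and 7.95 at Day 6. inx-19, a gap junction protein that in the embryo couples the AWC neurons, ran against the rest with 8.24, 8.41 and 8.23 at Day 15 and 5.76, 6.07 and 5.79 at Day 6.

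Among the lists for neurons, the cilium genes had risers and no fallers. C. elegans builds cilia only on sensory neurons, by intraflagellar transport along the axoneme. Of 51 such genes on the array, 21 were tested, and 8 rose and 0 fell (38.1%, against 16.4% of all genes), with a median change of 0.60. arl-13, a small GTPase of the ciliary membrane, had 7.74, 8.49 and 8.37 at Day 15, against 6.08, 6.08 and 6.08 at Day 6 (log2 change 2.12 ± 0.22, adjusted p = 6.7e-05). osm-3, a kinesin-2 motor of intraflagellar transport, had 6.76, 7.70 and 6.73 at Day 15 and 4.63, 5.37 and 5.20 at Day 6. dyf-3 had 9.09, 10.07 and 9.73 at Day 15, against 7.26, 7.94 and 7.37 at Day 6. Replicate 2 was the highest Day 15 array for all of them, and L4 values were the lowest of the 3 ages. With shared probe sets left out, or the level filter raised to 6, 3 cilium genes rose.

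Chemoreceptors, most of which are made in single pairs of neurons, were largely below the level filter. Of 1275 on the array 25 were tested, of which 4 rose and 7 fell. sri-31 rose beside sri-39, with 6.22, 5.50 and 5.89 at Day 15, against 2.79, 2.68 and 2.66 at Day 6. str-144 had 2.87, 2.87 and 3.00 at Day 15, against 6.00, 6.42 and 6.75 at Day 6. Like sri-39 and sri-31, it passed the level filter only through the age at which it was high. str-245 fell by at least 2.58-fold, srsx-34 by 2.39 ± 0.52 and str-124 by 2.27 ± 0.26.

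Of 143 tested nuclear hormone receptors, a family much enlarged in nematodes, 7 rose and 30 fell. nhr-247 had 6.81, 5.20 and 6.71 at Day 15, against 2.39, 2.31 and 1.88 at Day 6, at least 4.72-fold apart. nhr-68, a regulator of propionate breakdown, had 3.12, 3.52 and 3.77 at Day 15, against 7.28, 7.59 and 7.98 at Day 6. When the change had to exceed 2-fold beyond its error 4 receptors fell. Of 31 tested homeobox genes with ceh names, 5 rose and 5 fell, or 16.1% each way, near the 16.4% and 17.0% of all genes. Homeobox genes of other names, such as mec-3, are not in this count. ceh-10, which specifies a few classes of neurons, had 7.97, 7.40 and 7.25 at Day 15, against 3.41, 3.31 and 3.41 at Day 6, at least 11.6-fold apart. Like nhr-247, it passed the level filter only through Day 15. ceh-60, a PBC-class factor of the intestine, had 4.62, 5.49 and 4.88 at Day 15, against 7.44, 7.44 and 7.46 at Day 6.

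Muscle genes were lower at Day 15. Of 41 body wall muscle genes, 19 fell and 0 rose (46.3%, against 17.0% of all genes), with a median change of -0.95. With marked probe sets left out 7 fell, and 8 did when the change had to exceed 2-fold beyond its error. tnt-2, a troponin T, had 4.24, 4.82 and 4.59 at Day 15, against 9.60, 9.41 and 9.52 at Day 6, a fall of 31.1-fold (log2 change -4.96 ± 0.18, adjusted p = 3.3e-07). unc-27, a troponin I, had 8.63, 8.67 and 8.19 at Day 15, against 11.61, 11.63 and 11.63 at Day 6. unc-54, the major myosin heavy chain of body wall muscle, had 8.04, 8.64 and 7.70 at Day 15 and 10.98, 10.67 and 11.08 at Day 6. dim-1, an immunoglobulin-domain protein of the muscle attachments, and clik-1, a calponin-like protein, fell by 2.88 ± 0.17 and 2.82 ± 0.25. Of 6 muscle markers, 5 fell. Of 19 tested pharynx genes, which serve the feeding organ, 2 fell and 1 rose, and 0 of 5 pharynx markers were called, nor was any at an unadjusted p under 0.05. Of 32 intestine genes 16 fell and 1 rose, with a median change of -1.11.

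Basement membrane genes, which encode the sheet of matrix around muscle, gonad and gut, fell in 12 of 21 cases and rose in 0, with a median change of -1.20, or -1.07 with values under 4 set to 4 (57.1% fell, against 17.0% of all genes). mig-6, the papilin, had 6.95, 7.23 and 6.58 at Day 15, against 11.18, 11.03 and 11.38 at Day 6 (log2 change -4.28 ± 0.26, adjusted p = 4e-06). mig-17, a secreted ADAMTS protease that shapes the gonad, had 5.32, 4.47 and 4.53 at Day 15, against 9.13, 9.19 and 9.81 at Day 6. let-2, a type IV collagen chain, fell by 2.66 ± 0.26. unc-52, the perlecan under body wall muscle, fell by 3.12 ± 0.23 on its brightest probe set and had a change of -1.0 on the set not marked as shared (adjusted p = 0.14).

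The 3 coelomocyte markers fell to near the level filter. Coelomocytes are scavenger cells of the body cavity that take up fluid and macromolecules. cup-4, a channel-like protein needed for their endocytosis, had 4.21, 3.87 and 4.22 at Day 15, against 8.72, 8.47 and 8.65 at Day 6, a fall of at least 22.2-fold (log2 change -4.51 ± 0.33, adjusted p = 9.3e-06). lgc-26 had 2.43, 2.23 and 2.68 at Day 15, against 6.66, 7.36 and 6.54 at Day 6. unc-122 had 3.33, 2.93 and 3.16 at Day 15 and 4.11, 4.71 and 4.35 at Day 6, so its fall is only bounded at 1.31-fold. The fourth coelomocyte gene to fall was ceh-34, by at least 2-fold, and 4 of 8 did not pass the test.

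In the excretory canal, the osmoregulatory cell of the worm, 3 of 14 genes rose and 3 fell. Each share was 21.4%, against 16.4% risen and 17.0% fallen over all genes. pgp-12, an ABC transporter of the canal, had 3.36, 3.17 and 2.79 at Day 15, against 7.06, 7.10 and 7.40 at Day 6. vha-5, a proton pump subunit of the canal surface, had 3.78, 3.94 and 4.53 at Day 15, against 6.89, 6.92 and 7.30 at Day 6. Against these, aqp-8, an aquaporin, had 9.91, 10.34 and 11.08 at Day 15 and 7.30, 7.22 and 8.03 at Day 6 (adjusted p = 0.042), with an error of 1.01 beside L4 values of 6.29, 10.25 and 5.77. With the adult arrays fitted alone its adjusted p was 9.82e-05, and without any 1 of the 6 adult arrays the call was lost. exc-9, a LIM-domain protein that shapes the canal, rose by 1.44 ± 0.19, and exc-4, a chloride channel-family protein of the canal, by 1.32 ± 0.35. Of 20 somatic gonad genes, 3 fell (15.0%, against 17.0% of all genes) and 0 rose.

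Of 100 tested cuticle collagens with col names 30 fell and 3 rose (30.0% and 3.0%, against 17.0% and 16.4% of all genes). col-140 had 4.43, 4.96 and 4.47 at Day 15, against 11.31, 11.44 and 11.87 at Day 6, a fall of 121-fold (log2 change -6.92 ± 0.22, adjusted p = 1.6e-07). col-124 and col-98 fell by 5.68 ± 0.24 and 5.46 ± 0.70. Of 18 tested body-shape collagens, a separate list, 1 rose and 2 fell (5.56% and 11.1%). dpy-17, a collagen that sets body shape, rose, with 9.88, 10.36 and 9.89 at Day 15, against 8.33, 7.55 and 8.07 at Day 6. Its L4 values were lower than those of both adult ages, at 4.32 to 4.92. With shared probe sets left out 13 of the col genes fell and 0 rose. Hedgehog-related and patched-related genes, which in worms serve the epidermis and cuticle, fell in 15 of 55 cases and rose in 1. That is 27.3% fallen and 1.82% risen, against 17.0% and 16.4% of all genes. grd-5 had 2.97, 2.91 and 2.74 at Day 15, against 10.53, 9.88 and 10.52 at Day 6, a fall of at least 79.3-fold. grd-3 had 2.95, 3.49 and 3.00 at Day 15, against 10.85, 10.14 and 10.83 at Day 6, and grl-4 and wrt-3 fell by at least 30.5-fold and 16.5-fold. ptr-22 was the member that rose, with 10.01, 9.14 and 9.67 at Day 15, against 6.89, 6.68 and 5.62 at Day 6. Of 7 epidermis markers, 3 fell, among them the adult collagen col-19 (log2 change -4.40 ± 0.49), of which Day 15 replicate 3 held the lowest value.

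Detoxification enzymes fell in large numbers. Of 53 UDP-glucuronosyltransferases, which attach sugars to xenobiotics, 38 fell and 1 rose (71.7% fell, against 17.0% of all genes), with a median change of -2.17 (-1.79 with values under 4 set to 4). ugt-6 had 3.54, 3.85 and 3.64 at Day 15, against 10.03, 10.02 and 10.22 at Day 6, a fall of at least 68.1-fold. ugt-14 had 3.59, 3.68 and 3.59 at Day 15 and 8.10, 8.21 and 8.12 at Day 6. Its L4 values were under 2.4, so that Day 6 was its highest age. ugt-50 was called as risen from its brightest probe set (1.62 ± 0.51), which is marked as shared, and with marked sets left out it fell by 3.06. Of 28 glutathione S-transferases, 18 fell and 1 rose, with a median change of -1.47. gst-10 had 4.12, 4.19 and 4.30 at Day 15, against 9.08, 9.48 and 9.34 at Day 6, a fall of 34.2-fold (adjusted p = 1.8e-07). gst-5 rose by 1.40 ± 0.31.

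Of 49 cytochrome P450 genes 23 fell and 4 rose (46.9% and 8.16%, against 17.0% and 16.4% of all genes). Their median change was -0.87. cyp-29A4 had 4.73, 4.74 and 4.75 at Day 15, against 8.63, 8.72 and 9.12 at Day 6. cyp-13A5 rose, with 10.05, 9.74 and 10.12 at Day 15 and 7.50, 6.74 and 8.62 at Day 6. Of 43 ABC transporters 15 fell and 7 rose (34.9% and 16.3%, against 17.0% and 16.4% of all genes). The share that rose was thus near that of all genes. The pgp class of P-glycoproteins took 9 of the falls. pgp-8 had 7.63, 7.91 and 7.28 at Day 15, against 10.86, 10.69 and 11.12 at Day 6. Among the risers was wht-8, with 6.34, 7.18 and 6.70 at Day 15, against 3.42, 2.90 and 3.20 at Day 6. Of 24 antioxidant enzymes 4 fell and 2 rose (16.7% and 8.33%, against 17.0% and 16.4% of all genes). sod-3, the manganese superoxide dismutase used as a stress reporter, had 4.75, 4.72 and 4.47 at Day 15, against 7.25, 6.64 and 6.77 at Day 6.

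Most tested members fell in several gene-name classes. All 8 called members of the 9 tested nspg genes, a family of small nematode-specific peptides, and all 8 called members of the 10 tested spig genes fell. nspg-9 had 7.01, 7.42 and 7.28 at Day 15, against 12.77, 12.92 and 12.94 at Day 6, a fall of 49.9-fold (log2 change -5.64 ± 0.17, adjusted p = 1.3e-07). spig-20 had 3.43, 2.90 and 2.51 at Day 15, against 9.64, 9.13 and 9.85 at Day 6. Several nspg genes share probe sequences, and with marked probe sets left out 4 fell. Of the asp class of cathepsin D-like proteases 9 of 10 fell, and of the irg class of infection response genes 6 of 8. The transthyretin-related proteins, secreted and much multiplied in nematodes, split, with 13 of 38 falling and 5 rising. These shares were 34.2% and 13.2%, against 17.0% and 16.4% of all genes. ttr-44 had 5.45, 6.50 and 4.46 at Day 15, against 11.28, 11.31 and 11.21 at Day 6. ttr-12 had 7.67, 8.18 and 8.73 at Day 15, against 4.01, 3.37 and 3.73 at Day 6, and L4 values of 9.02 to 9.70.

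**Figure D5:**
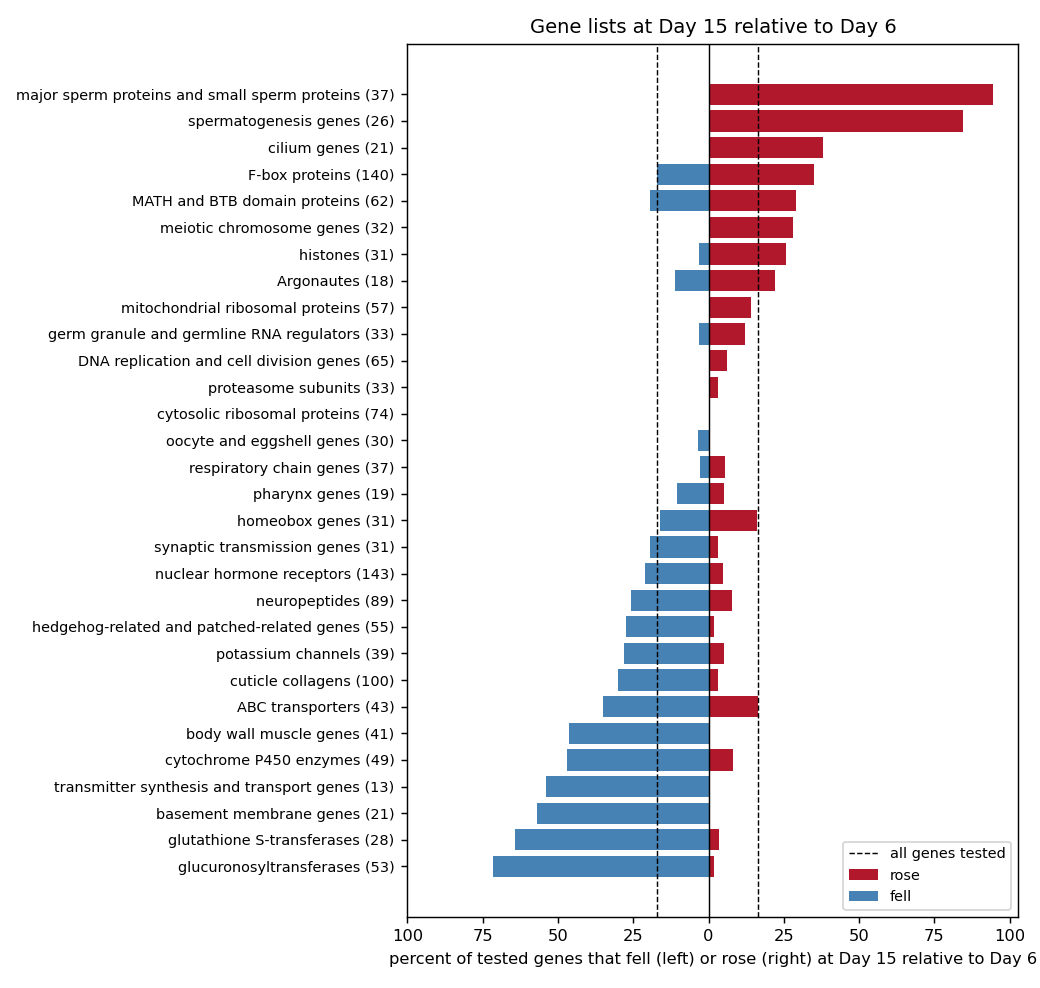
Percent of tested genes that rose (right) and fell (left) at Day 15 relative to Day 6 in 30 gene lists (rows, with the number tested), with vertical lines at 16.4% and 17.0%, the shares of all 11758 genes tested. Sperm lists have the longest bars on the right and glucuronosyltransferases the longest on the left.

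Among the apoptosis genes, those named here degrade DNA and changed in both directions. crn-6, an acid DNase II of dying cells, had 3.97, 3.79 and 4.05 at Day 15, against 10.36, 10.04 and 10.58 at Day 6, a fall of at least 79.3-fold (log2 change -6.39 ± 0.23, adjusted p = 3.2e-07). nuc-1, the main acid DNase of the gut and of engulfing cells, had 8.75, 8.54 and 8.80 at Day 15, against 11.95, 12.31 and 12.14 at Day 6. cps-6, the mitochondrial endonuclease G, ran the other way, with 12.04, 12.10 and 12.32 at Day 15 and 10.86, 10.72 and 10.88 at Day 6. Of the 25 tested genes of the apoptosis list, which is not a list of DNA-degrading genes, 3 fell and 2 rose. Both shares were below those of all genes, 17.0% fallen and 16.4% risen.

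Among genes that were bright at either age, several changes were small. pus-1, a pseudouridine synthase gene, and dohh-1, a deoxyhypusine hydroxylase gene, were 2 of the 10 risers with the highest Day 15 means and rose by 1.12 ± 0.18 and 1.23 ± 0.20. F59C12.4, of the same 10, had 12.75, 13.09 and 12.79 at Day 15, against 11.92, 11.81 and 11.66 at Day 6 (adjusted p = 0.035). Of the 5 fallers with the highest Day 6 means, the yolk protein genes vit-6 and vit-4 fell by 1.23 ± 0.17 and 1.56 ± 0.20, F15E6.3 by 1.22 ± 0.27 and the collagen gene col-106 by 2.29 ± 0.21. The fifth, the lysozyme gene ilys-5, was also one of the 6 largest falls, with 4.41, 5.96 and 3.91 at Day 15, against 13.39, 13.53 and 13.36 at Day 6. The other five, sysm-1, C23H5.8, F28H7.3, hrg-11.2 and asp-13, stood under 4 on every Day 15 array and above 10 on every Day 6 array.

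Few genes for the core machinery of the cell were called. Of 74 cytosolic ribosomal protein genes limma called 0 in either direction, with 3 higher and 1 lower at an unadjusted p under 0.05. Of 10 tubulins listed by gene name it called 0, with 1 higher at that p. That list leaves out mec-12, the alpha-tubulin given above as fallen. Mitochondrial ribosomal protein genes lay higher at Day 15, with a median change of 0.67 over 57 genes, 8 of which rose and 0 fell (14% rose, against 16.4% of all genes). mrps-12 had 10.34, 10.54 and 10.33 at Day 15, against 9.05, 9.35 and 9.07 at Day 6 (log2 change 1.25 ± 0.17, adjusted p = 0.00034). mrps-21, mrps-27 and mrps-6 rose by 1.19 to 1.23. The count was 14 with arrays centred on their medians and 0 when the change had to exceed 2-fold beyond its error. Of 31 aminoacyl-tRNA synthetases, the enzymes that charge tRNAs, 2 rose and 0 fell, ears-2 and sars-2, both mitochondrial enzymes.

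In the citric acid and glyoxylate cycles 4 of 23 genes fell (17.4%, against 17.0% of all genes) and 0 rose, and of 20 glycolysis and gluconeogenesis genes 4 fell and 2 rose. pyk-2, a pyruvate kinase, had 8.98, 9.51 and 9.08 at Day 15, against 11.35, 11.09 and 11.08 at Day 6. Of 37 respiratory chain genes, 2 rose and 1 fell, with a median change of -0.01. Of 34 chaperones 1 rose and 1 fell, and the same counts held for 25 autophagy genes and 36 translation factors. atg-9, the membrane protein of autophagosome formation, rose by 1.53 ± 0.30, with 7.42, 7.32 and 6.66 at Day 15 and 5.90, 5.55 and 5.36 at Day 6.

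Genes that changed in one direction lay beside one another more often than the genes tested at large. Of 1802 risers with a tested next neighbour in chromosome order, 463 were followed by another riser (25.7%, against 15.7% of the 11493 genes so ordered). Of 1975 fallers, 590 were followed by another faller (29.9%, against 17.2%). The longest run of risers held 7 genes, among them kin-21, kin-24 and ssp-10. Runs of 6 held msp-63 and msp-142 beside acdh-8 in one case, and msp-55, msp-53 and spe-55 in another. Neighbours can be duplicated genes whose probes share sequence, and the part of this in the counts was not tested.

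The Day 15 arrays spread a little more widely than the Day 6 arrays. The median SD over the 3 arrays was 0.217 at Day 15 and 0.180 at Day 6, and the SD was higher at Day 15 for 57.7% of the genes tested. Among the 6237 genes with a mean of at least 7 at both ages the share was 59.1%. With 3 arrays per age this is a description over genes, which are not independent of one another.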

How the data were processed

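Total RNA (100 ng) of whole worms was amplified with a NuGEN kit and hybridised to GeneChip C. elegans genome arrays. The authors computed the deposited values with GCRMA, which corrects background by probe sequence, normalises between arrays and gives 1 log2 value per probe set. Their versions of GCRMA and of MAS5, used for present calls, are not given in the sources used here. Because values were normalised between arrays, a change shared by most genes cannot be seen. Array medians lay between 5.42 and 5.73, and precision is limited by the number of arrays.

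Of 22625 probe sets, 20766 had 1 gene, 887 several and 972 none listed (controls included). Symbols were updated through a RefSeq gene table, in which 20701 of the 20766 were found. A gene was represented by its probe set with the highest mean over 9 arrays, chosen without regard to age. Groups follow the sample titles, with 3 separately propagated populations per age. limma 3.58.1 (R 4.3.3) fitted all 9 arrays with 3 ages, giving 6 residual degrees of freedom, and the contrast was Day 15 minus Day 6 in a 2-sided test, with Benjamini-Hochberg adjustment over 11758 genes. Errors after ± are standard errors of the fit unless marked SD. Data were simulated for 11758 genes, with each gene's mean and pooled spread held the same at all 3 ages. The fit called 96 of 100 genes given a 10-fold change and 52 of 100 given a log2 change of 1.5. None had the wrong sign, and 4 unchanged genes were called. In the real arrays the median SD was 0.409 in L4 larvae, 0.217 at Day 15 and 0.180 at Day 6, and far more genes changed. The simulated rates therefore need not hold for the real fit.

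The comparison, its 53 gene lists and 11 marker lists were chosen with earlier results of these data known, so their counts are descriptions and no set test was run. Genes were named by a rule: the 12 largest rises and 6 largest falls with a mean of at least 7 at the higher age, the 10 risers with the highest Day 15 and 5 fallers with the highest Day 6 means, up to 4 called members of a list or class in its main direction and 2 against it, the classes with the largest shares, the longest runs, and the markers. Relatives set beside a named riser, fmo-2 and the genes of males were chosen after their values were seen. Alternatives changed the arrays fitted, the filter, the probe set, the scaling, the variance model, the test, a floor at 4 and a replicate block, and left out each array in turn.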

Additional observations from a re-analysis of the deposited data

How the results depend on the processing

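The counts of 1929 risen and 1993 fallen genes stayed within 1.5 times under every alternative except limma's test against a 2-fold change, which called 1116 and 998, all among the original calls. With values under 4 set to 4 the counts were 1711 and 1769, and with probe sets marked as shared left out, so that 8452 genes were tested, 1492 and 1457. Centring arrays on their medians shifted all changes by about 0.07 and gave 2064 and 1857. Without 1 array the counts ranged from 1828 to 2028 risen and from 1806 to 2166 fallen, those of at least 10-fold from 491 to 581 and from 329 to 350. Same-numbered Day 15 and Day 6 arrays showed no marked shared deviation (correlations 0.04, -0.01 and 0.07). With 3 arrays per age this cannot tell whether the numbers pair the samples. A replicate block gave 1940 and 1986, with 537 and 337 of at least 10-fold.

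Of the 198 named genes tested, 28 lost their call only under the test against 2-fold. Leaving out 1 array cost 16 their call, namely F15E6.3, F59C12.4, alg-1, aqp-8, csr-1, exc-4, ins-5, knl-3, meg-4, msp-78, psf-2, rfc-2, ric-8, sars-2, snf-3 and ugt-50. The change of alg-1 turned to 0.17 with the mean of its probe sets, and that of ugt-50 to -0.40 with that mean and to -3.06 on unmarked sets. rpn-6.1, not called, ranged from -0.26 to 0.01 without 1 array, turning sign only without Day 6 replicate 2. The causes were not tested. Genes with means under 4 have bounds only.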

Other observations

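The deposited values carry 2 decimals, and some genes had the same value on all 3 arrays of an age. This held for 16 of the 11758 genes tested at Day 15, for 67 at Day 6 and for 6 in L4 larvae. arl-13 was one of them at Day 6, with 6.08 on each array. How such ties arose was not tested.

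The sperm genes of the Day 6 arrays were not level between populations. The median over the 37 genes for major and small sperm proteins was 10.94, 11.21 and 11.30 at Day 15, and 9.33, 8.35 and 9.05 at Day 6. Day 6 replicate 2 was the lowest, and all 3 Day 6 values lay below every Day 15 value. Over the 30 oocyte and eggshell genes the medians were 10.81, 11.05 and 11.02 at Day 15, and 11.36, 11.67 and 11.61 at Day 6.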
